A study of Mus musculus with 8 samples.

Results

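Hepatokines are proteins that the liver releases into the blood and that act on fat, muscle, brain or vessels. The 9 genes described here are Fgf21, Gdf15, Inhbe, Angptl4, Angptl6, Angptl8, Ahsg, Fetub and Lect2. They were chosen by name, but with earlier results of these data known. All 9 were present among the 14317 mouse genes of the expression table. They were compared in the livers of female mice, 4 in the group Con-Veh and 4 in the group Con-DHT, with 1 RNA library per mouse. All mice were labelled WT and came, by the study's methods, from a colony with a floxed androgen receptor gene, for which no Cre is named in the control groups. They received a silastic pellet at 7 weeks of age, empty in Con-Veh or holding 10 mm of dihydrotestosterone (DHT), an androgen that is not converted to estrogen, in Con-DHT. Every mouse ate a Western diet (WD) rich in palm oil, fructose and cholesterol for 8.5 weeks, so no liver from a chow-fed or male mouse enters these values. The study's methods give an overnight fast before the tissues were taken.

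Members of the group differ in what switches them on. FGF21, GDF15 and the activin subunit INHBE are made in larger amounts when the cell is under nutrient or protein-folding stress, in large part through the transcription factor ATF4, and Fgf21 and Angptl4 are also targets of the fatty acid receptor PPARα in fasting. ANGPTL4 and ANGPTL8 restrain lipoprotein lipase and so set where circulating triglyceride is taken up, whereas the fetuins AHSG and FETUB are plasma glycoproteins of the cystatin superfamily that hepatocytes secrete steadily.

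The first 3 promoters below are shown because they share the core of the C/EBP-ATF response element through which ATF4 acts. Those of the adjacent genes Fetub and Ahsg are shown because both means were lower in Con-DHT, although the difference of Ahsg did not pass the main test described below. Each is the 250 bases before the first base of the transcript in RefSeq (GRCm38.p6), written 5′ to 3′ on the strand of the gene, with the searched motifs in capitals. Fgf21 lies at chr7:45615491-45615740 on the minus strand, Inhbe at chr10:127351849-127352098 on the minus strand and Angptl8 at chr9:21835260-21835509 on the plus strand. Ahsg lies at chr16:22891765-22892014 and the first of both Fetub windows at chr16:22918132-22918381, each on the plus strand.
Fgf21: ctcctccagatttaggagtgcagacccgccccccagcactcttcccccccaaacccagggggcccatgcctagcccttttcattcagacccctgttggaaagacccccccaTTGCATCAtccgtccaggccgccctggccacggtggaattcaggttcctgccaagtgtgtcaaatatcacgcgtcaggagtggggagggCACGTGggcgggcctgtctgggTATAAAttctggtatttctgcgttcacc
Inhbe: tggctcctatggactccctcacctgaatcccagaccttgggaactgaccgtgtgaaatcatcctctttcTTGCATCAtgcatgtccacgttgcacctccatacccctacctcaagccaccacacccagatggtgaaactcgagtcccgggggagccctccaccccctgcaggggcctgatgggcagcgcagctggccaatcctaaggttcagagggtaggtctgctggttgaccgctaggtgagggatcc
Angptl8: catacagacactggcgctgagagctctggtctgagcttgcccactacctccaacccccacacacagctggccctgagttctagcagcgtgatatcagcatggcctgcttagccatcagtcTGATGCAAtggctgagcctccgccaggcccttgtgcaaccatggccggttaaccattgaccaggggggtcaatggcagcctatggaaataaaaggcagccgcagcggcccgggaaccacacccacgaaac
Ahsg: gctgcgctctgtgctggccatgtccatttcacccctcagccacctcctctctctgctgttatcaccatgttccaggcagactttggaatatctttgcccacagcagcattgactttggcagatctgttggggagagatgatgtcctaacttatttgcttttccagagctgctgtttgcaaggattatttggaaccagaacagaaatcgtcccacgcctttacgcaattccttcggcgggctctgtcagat
Fetub: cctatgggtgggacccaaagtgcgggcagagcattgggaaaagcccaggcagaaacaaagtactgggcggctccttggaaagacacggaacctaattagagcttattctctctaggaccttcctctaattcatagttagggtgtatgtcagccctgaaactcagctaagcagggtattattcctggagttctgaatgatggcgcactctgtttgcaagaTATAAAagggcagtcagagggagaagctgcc

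The motif TGATGNAA, read on either strand, was found in 3 of the 8 members that had a promoter entry and in 3.45% of all 32851 promoter windows. It began 139 bases before the start site of Fgf21, 181 before that of Inhbe and 130 before that of Angptl8, and it was not found in either window of Gdf15. The E-box CACGTG, present in 6.02% of all windows, was found in Fgf21 at 50 bases and in the second Gdf15 window at 83 bases before the start. TATAAA, present in 12.4% of all windows, stood 28 bases before the start of Fgf21 and 31 before the start of Fetub. The element TTCNNNGAA, the consensus for STAT5, was found in 7.02% of all windows and in those of no member. These are matches of letters in a short window. They do not show whether a factor was bound there.

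The libraries held between 13123962 and 17815944 reads on mouse genes, recovered from the values as whole numbers. Each value is the read number after division by that library's size factor. All 9 members were among the 14312 genes tested by limma on log2(value + 1), a scale on which fold changes of low genes are understated. After Benjamini-Hochberg adjustment over all tested genes with a threshold of 0.05, limma called 1 of the 9 members, Fetub, which was lower in Con-DHT. The background was 7.21% of all genes called, 4.60% higher and 2.61% lower in Con-DHT. EdgeR called the same member alone, against 7.15% of all genes. DESeq2 called 3 (Fetub, Ahsg and Inhbe), against 11.0% of all genes. At an unadjusted p of at most 0.05, limma passed 4 members, Fetub, Inhbe, Gdf15 and Angptl8, against 23.2% of all genes. The groups did not overlap for 1 member, against 15.1% of all genes. Of the 9 log2 fold changes, 4 were positive and 5 negative, with a median of -0.02 beside -0.0081 over all genes. The spread between mice of a group differed among the members: the residual SD ran from 0.08 log2 units for Fetub to 0.72 for Gdf15 and lay above the all-gene median of 0.20 (quartiles 0.13 and 0.35) for 5 of the 9. Those below it were Fetub, Ahsg, Inhbe and Angptl4. A single call among 9 genes is close to the background share.

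**Figure D1:**
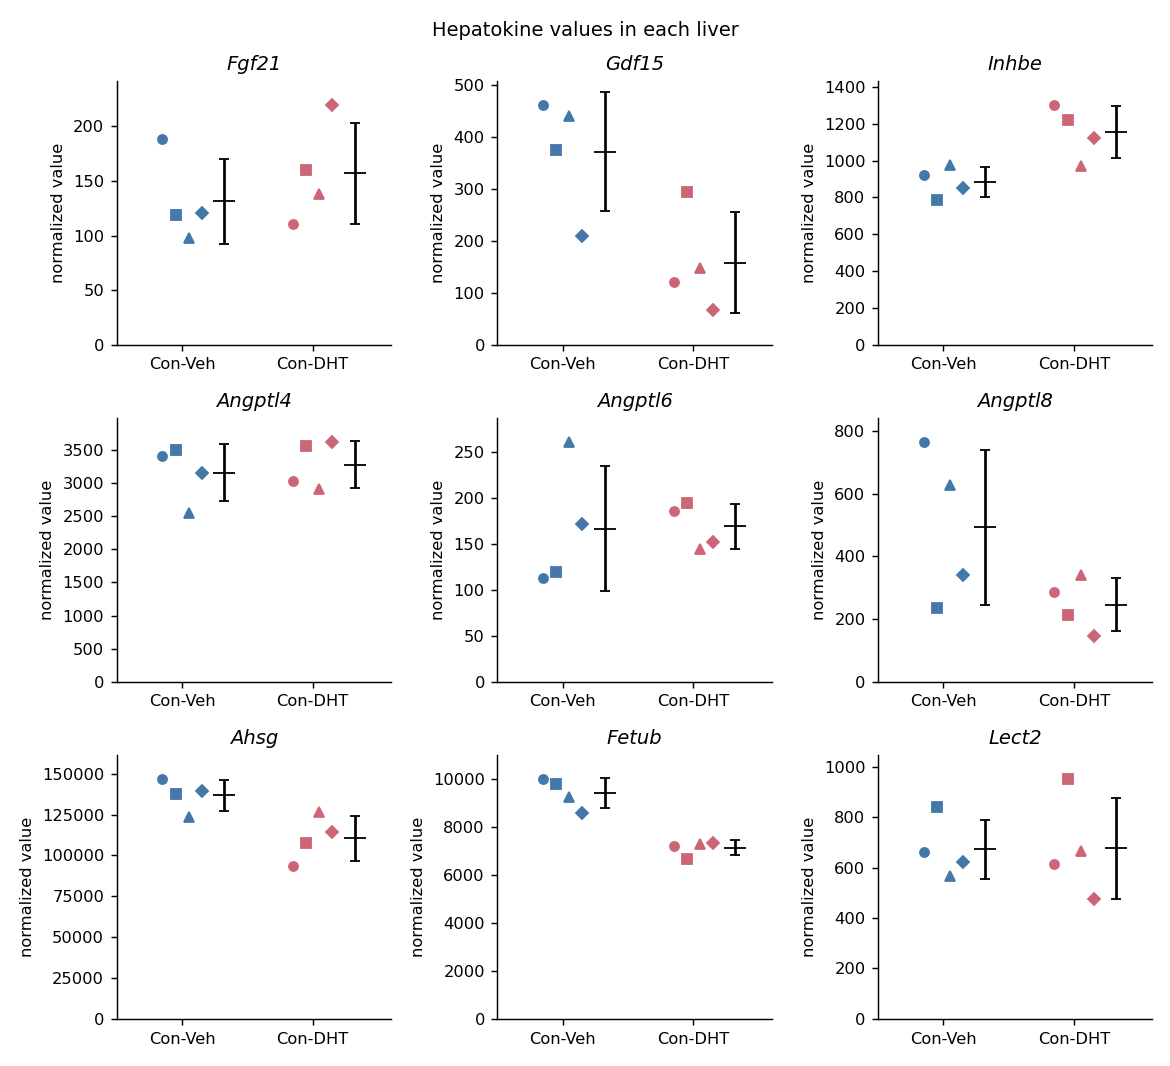
Normalized value (reads divided by the library's size factor, axes from 0) of each member in the 4 Con-Veh (blue) and 4 Con-DHT (red) livers. Circle, square, triangle and diamond are replicates 1 to 4 of a group, and the bar is mean ± SD; the groups are apart only for Fetub.

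Fetub encodes fetuin-B, a secreted inhibitor of the ovastacin protease that also circulates at raised levels in fatty liver disease. Its normalized values in Con-Veh replicates 1 to 4 were 10009, 9813, 9250 and 8621, and in Con-DHT replicates 1 to 4 they were 7231, 6674, 7318 and 7358. All 4 Con-DHT livers lay below the lowest Con-Veh liver. The mean fell from 9423 ± 624 to 7145 ± 318 (SD, n = 4 in each group), to 0.758 of the Con-Veh mean. The log2 fold change was -0.40 with a standard error of 0.08 and a 95% interval from -0.57 to -0.22, and the adjusted p from limma with the Benjamini-Hochberg method was 0.0149. An exact two-sided permutation test gave p = 0.029, the smallest that 4 against 4 allows. The call was lost when libraries were scaled by their spike-in RNA (log2 fold change -0.20, limma adjusted p = 0.925), a scaling that moved the median over all genes to 0.19. It was also lost without Con-DHT replicate 2, by a small margin (log2 fold change -0.37, limma adjusted p = 0.0502). The call was lost as well without the 2 Con-DHT livers with the highest summed adipocyte markers (-0.44, limma adjusted p = 0.0595).

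In bulk tissue, fewer cells of a type and less RNA per cell cannot be told apart. The 6 hepatocyte markers had summed values between 790362 and 1586530 in Con-Veh and between 826043 and 1000310 in Con-DHT, and limma called none of them. Alb was the largest part of this sum, at 539803 to 1275380 in Con-Veh and 549197 to 685092 in Con-DHT. Some markers of other liver cells moved with the groups. The 6 Kupffer cell markers summed to 5357 to 6766 in Con-Veh and to 3636 to 4932 in Con-DHT. Clec4f, Cd5l and Vsig4 fell, and Adgre1, Timd4 and Marco did not pass in limma. The 6 sinusoidal endothelial markers summed to 3428 to 3956 and to 2615 to 3079, and Stab2 and Lyve1 fell. Stab2, the largest part of this sum (1441 to 1752 in Con-Veh), was the only one of the 6 whose groups did not overlap. Clec4g, Pecam1, Fcgr2b and Kdr did not pass in limma, and Kdr had a log2 fold change of 0.0003. The ranges of the sums did not overlap between the groups for either list. Stellate cell markers (1283 to 3727, and 1840 to 2142) and cholangiocyte markers (881 to 1049, and 856 to 1174) overlapped, and limma called none of either list. The adipocyte markers summed to 877 to 1263 in Con-Veh. Con-DHT replicates 3 and 4 stood at 2721 and 3951, above 980 and 1042 in the other Con-DHT livers. By this sum alone they are called high in adipocyte markers here. Limma called none of the 6. In Con-DHT the largest values were those of Cfd (up to 2033) and Cidec (up to 1329). The lowest Con-DHT values of Plin1 (67.4), Lep (1.02), Retn (21.3) and Cfd (307) lay below their lowest Con-Veh values (68.9, 2.00, 22.0 and 336). Those of Adipoq and Cidec did not. Of the 6 neutrophil markers, 0 were in the table. Ptprc, which other white blood cells also express, was the 1 of 6 genes listed for lymphocytes that was in it. Its values, 159 to 246 in Con-Veh and 111 to 159 in Con-DHT, do not measure lymphocytes alone. Cela1 was the 1 of 6 for exocrine pancreas, at 59.4 to 84.9 and 93.9 to 186, and it rose. The part of these cell types in the values of the hepatokines was not tested.

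Ahsg encodes fetuin-A, a mineral-binding plasma protein that has been described as an inhibitor of the insulin receptor. Its values were 146582, 137635, 123268 and 139185 in Con-Veh and 93362, 107729, 126611 and 114098 in Con-DHT. The Con-DHT livers were below the lowest Con-Veh liver in 3 of 4 cases, with replicate 3 as the exception. The mean was 136668 ± 9749 in Con-Veh and 110450 ± 13831 in Con-DHT, and Ahsg took 0.889% of all normalized values in Con-Veh and 0.765% in Con-DHT. The difference did not pass in limma (log2 fold change -0.31, standard error 0.17, 95% interval -0.70 to 0.07, adjusted p = 0.318), and the exact permutation p was 0.057. DESeq2 on the recovered reads called it, with an adjusted p of 0.046. Ahsg was among the most abundant liver transcripts, in position 10 of 14282 genes when values were divided by exon length.

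Ahsg and Fetub stand next to each other on mouse chromosome 16, followed by Hrg, Kng2 and Kng1, which encode histidine-rich glycoprotein and the kininogens, further secreted members of the cystatin superfamily. All 5 had negative log2 fold changes. Fetub, whose call led to this set, and both kininogens fell in limma without overlap of the groups, where 2.61% of all genes were called lower and 15.1% did not overlap in either direction. With Fetub among the 5, their count is a description. The sign of each was the same under all alternative settings, spike-in scaling included. Kng1, a precursor of the peptide bradykinin, fell from 33967 ± 7308 to 20629 ± 1113, with a log2 fold change of -0.70 and an adjusted p of 0.0204 (limma, Benjamini-Hochberg). Kng2 fell from 5450 ± 724 to 3734 ± 402, with a log2 fold change of -0.54 and an adjusted p of 0.0164 (limma). Hrg was 19437 ± 2828 in Con-Veh and 15922 ± 2259 in Con-DHT, and this difference did not pass (log2 fold change -0.29, limma adjusted p = 0.250). The Con-DHT means came to 80.8% of the Con-Veh mean for Ahsg, 75.8% for Fetub, 81.9% for Hrg, 68.5% for Kng2 and 60.7% for Kng1. With spike-in scaling the call of both kininogens was lost (limma adjusted p = 0.742 for Kng1 and 0.884 for Kng2). The call of Kng1 was also lost without Con-Veh replicate 2 or without Con-DHT replicate 1, 2 or 4 (limma adjusted p of at most 0.0601), and that of Kng2 without Con-Veh replicate 2 (limma adjusted p = 0.0506). Over all 21 alternative settings Kng1 was called in 14, with losses also in settings not named here, and Kng2 in 19. Of the 9 tested genes in the list of cystatin relatives and of fetuin and LECT2 partners, Kng1 and Kng2 were the 2 that passed, both lower, and the median of the list was -0.14. The insulin receptor Insr, the LECT2 receptors Met and Tie1, and Tlr4 did not pass.

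**Figure D2:**
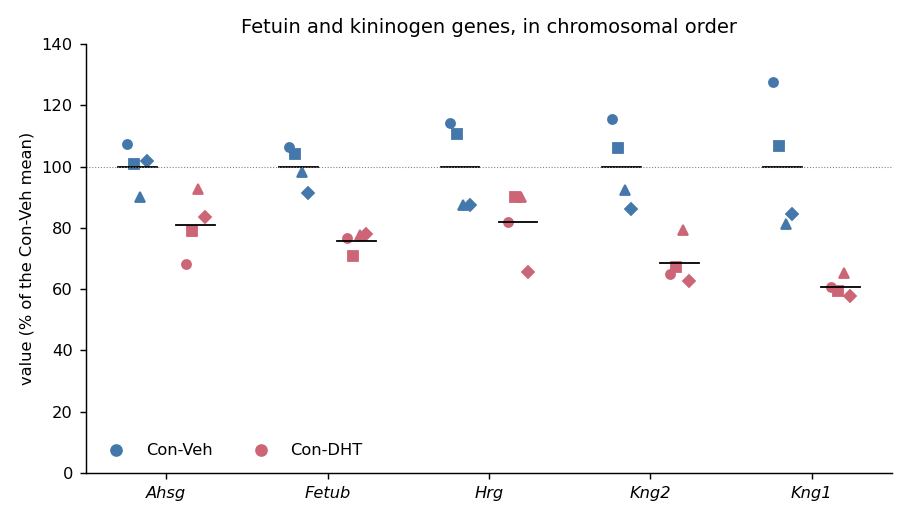
Value of 5 neighbouring cystatin superfamily genes in each liver as a percentage of the gene's Con-Veh mean; blue, Con-Veh; red, Con-DHT; symbols, replicates 1 to 4; short bars, group means. Con-DHT means lie between 60.7% and 81.9%, and the groups overlap for Ahsg and Hrg.

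Among the angiopoietin-like members, Angptl4 and Angptl6 differed little between the group means and Angptl8 was lower in Con-DHT without passing the test. Angptl4, which inhibits lipoprotein lipase in fasting, had values of 3406, 3504, 2551 and 3155 in Con-Veh and 3026, 3559, 2913 and 3617 in Con-DHT. The 2 groups covered nearly the same range. The means were 3154 ± 428 and 3279 ± 361, and the 95% interval of the log2 fold change, from -0.20 to 0.32 around 0.06, leaves room for a change of up to 1.24-fold upward (limma adjusted p = 0.807).

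Angptl8, which responds to insulin and feeding, varied widely. It stood at 764, 235, 629 and 339 in Con-Veh and at 286, 213, 339 and 145 in Con-DHT. The lowest Con-Veh value, in replicate 2, lay within the Con-DHT range, and 2 of the 4 Con-DHT livers were below it. The means were 492 ± 246 and 246 ± 84.9. The log2 fold change of -0.92 had a 95% interval from -1.74 to -0.09 and did not pass after adjustment (limma adjusted p = 0.169, exact permutation p = 0.114). Angptl8 lies inside the gene Dock6 on the other strand, but the 2 share no exon bases.

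Angptl6, also called angiopoietin-related growth factor, had values of 113, 120, 261 and 171 in Con-Veh and 185, 195, 144 and 152 in Con-DHT. Con-Veh replicate 3 was the highest of the 8, and the Con-DHT livers all lay inside the Con-Veh range. The means were 166 ± 68.1 and 169 ± 24.7, with a log2 fold change of 0.09 (95% interval -0.44 to 0.63, limma adjusted p = 0.855). Of its 1582 exon bases, 265 (16.8%) also belong to A230050P20Rik on the other strand, whose mean value was 973, and without strand in the counting the reads of that stretch could not be told apart.

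Lipc, the hepatic lipase, was lower in Con-DHT among the genes of plasma triglyceride clearance. It fell from 3244 ± 425 to 2439 ± 217 (log2 fold change -0.41, limma adjusted p = 0.0475), without overlap of the groups. The call was close to the threshold. With any 1 liver left out it held without Con-Veh replicate 1 alone (limma adjusted p up to 0.119), and over 21 alternative settings it was called in 7 and negative in every one. Lpl, Apoa5, Apoc3 and the ANGPTL-cleaving protease Furin did not pass.

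Gdf15 had the lowest ratio of group means among the members. It encodes a stress-induced hormone that lowers food intake through a receptor in the hindbrain. Its values were 461, 373, 440 and 210 in Con-Veh and 121, 294, 147 and 67.4 in Con-DHT. All Con-DHT livers were below the Con-Veh median, and 3 of 4 were below the lowest Con-Veh liver, but Con-DHT replicate 2 at 294 lay above Con-Veh replicate 4 at 210. The mean was 371 ± 114 in Con-Veh and 157 ± 97.1 in Con-DHT, 0.424 of the Con-Veh mean. The log2 fold change was -1.37 with a standard error of 0.40 and a 95% interval from -2.25 to -0.49, and it did not pass after adjustment (limma adjusted p = 0.0678, exact permutation p = 0.057). It passed without Con-DHT replicate 2 (log2 fold change -1.73, limma adjusted p = 0.0180) and with spike-in scaling (-1.17, limma adjusted p = 0.00489). The fold change under spike-in scaling was smaller. Standard errors of genes drew together in that fit: that of Angptl8 fell from 0.37 to 0.30, and that of Angptl4 rose from 0.12 to 0.30. The spike-in pass therefore does not rest on the spread of Gdf15 alone. Without the 2 Con-DHT livers that were high in adipocyte markers the log2 fold change was -0.91 (limma adjusted p = 0.254). Over the 8 livers Gdf15 spanned 6.83-fold, the widest range of the members, and the lowest liver still had 62 reads, for which counting error alone is 12.7%. Its known receptor gene Gfral and the co-receptor Ret were not in the table.

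Inhbe encodes the βE subunit of activin E, a liver-secreted ligand that restrains fat breakdown in adipose tissue. Its values were 921, 788, 976 and 854 in Con-Veh and 1303, 1222, 972 and 1125 in Con-DHT. Con-DHT replicates 1, 2 and 4 were above every Con-Veh liver, and replicate 3 lay within the Con-Veh range. The mean was 885 ± 81.9 in Con-Veh and 1155 ± 142 in Con-DHT, a ratio of 1.31. The log2 fold change was 0.38 (95% interval 0.15 to 0.61) and missed the threshold in limma by a small margin, with an adjusted p of 0.0538 and an exact permutation p of 0.057. It passed in DESeq2 (adjusted p = 0.0171) and in limma without Con-DHT replicate 3 (adjusted p = 0.0245).

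The neighbouring gene Inhbc, which encodes the related βC subunit, was 1586 ± 120 in Con-Veh and 1446 ± 186 in Con-DHT (log2 fold change -0.14, limma adjusted p = 0.440). Of 12 tested activin subunits, receptors and inhibitors, 0 passed in limma, and their median was -0.08. At the smallest p values of that list, the type I receptor Acvr1b was higher in Con-DHT without overlap (log2 fold change 0.39, limma adjusted p = 0.0563), and the subunit Inhba had a log2 fold change of -0.86 (limma adjusted p = 0.144).

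Fgf21, the fasting- and stress-responsive hormone that signals through β-klotho, was one of the least abundant members. The normalized values were 188, 119, 97.8 and 121 in Con-Veh and 111, 160, 138 and 220 in Con-DHT. Con-DHT replicate 4 and Con-Veh replicate 1 were the highest, and the other livers of the groups intermingled. The means of 131 ± 39.1 and 157 ± 46.3 differed by less than the spread between mice (log2 fold change 0.25, 95% interval -0.27 to 0.78, limma adjusted p = 0.572). The interval covers both a moderate decrease and a rise of up to 1.72-fold, and with 98 to 202 reads per library counting error added up to 10.1% to a value. Of the 6 tested receptor and processing genes of FGF21 and GDF15, 0 passed in limma. Those with the smallest p were the bile acid-related FGF receptor Fgfr4 (1165 ± 115 in Con-Veh and 835 ± 202 in Con-DHT, log2 fold change -0.51, limma adjusted p = 0.0801) and Fgfr3 (log2 fold change -0.35, limma adjusted p = 0.155).

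Lect2, a neutrophil-attracting protein that binds the receptors MET and TIE1, showed values of 662, 840, 565 and 621 in Con-Veh and 613, 950, 664 and 477 in Con-DHT. The lowest and the highest of the 8 livers were both Con-DHT. The means were 672 ± 119 and 676 ± 199, with a log2 fold change of -0.02 (95% interval -0.45 to 0.41, limma adjusted p = 0.967). Its sign turned in 9 of 21 alternative settings, so these data give no direction for Lect2.

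**Figure D3:**
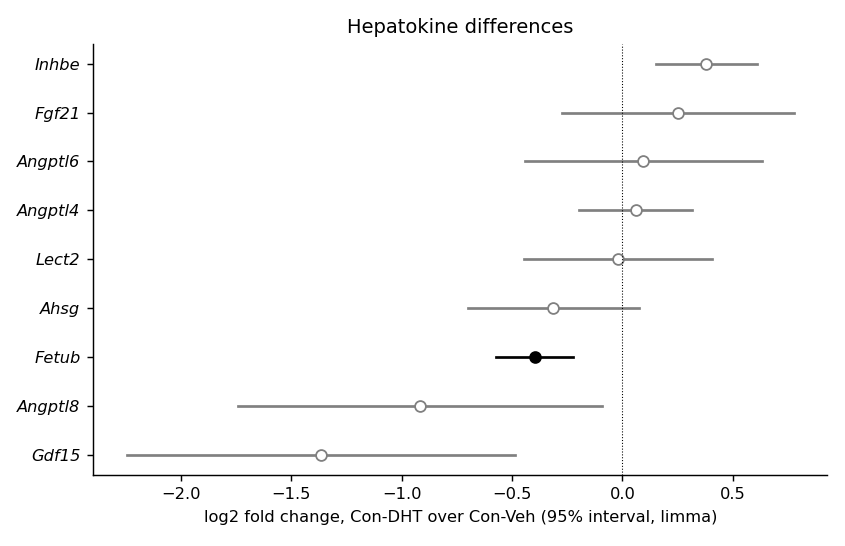
Log2 fold change of Con-DHT over Con-Veh for each member with its 95% interval from limma; the filled point passed at an adjusted p of at most 0.05 and open points did not. The intervals of Gdf15, Angptl8, Fetub and Inhbe exclude 0 before adjustment.

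Divided by exon length, values can be set beside each other across genes. On this scale Ahsg was first and Fetub second of the members in all 8 livers, at 62206 and 4803 per kilobase on average in Con-Veh and 50273 and 3642 in Con-DHT. Angptl4 (891 and 926) and Lect2 (731 and 736) came next on average and changed places between livers. Angptl8 followed at 569 per kilobase in Con-Veh and 284 in Con-DHT. Gdf15, Inhbe, Fgf21 and Angptl6 lay lowest and close together in Con-Veh, at 200, 166, 138 and 105 per kilobase. Gdf15 was in position 6 of the 9 members in Con-Veh replicates 1 to 3 and in position 8 or 9 in the other 5 livers. Inhbe was in position 6 in all 4 Con-DHT livers and between 6 and 8 in Con-Veh. The neighbours in this lower part of the order overlapped in their values over mice.

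The integrated stress response, in which ATF4 raises genes of amino acid supply and protein folding, is the common regulator named above for Fgf21, Gdf15 and Inhbe. Of 17 listed targets, 7 passed in limma, 5 higher and 2 lower in Con-DHT, and the groups did not overlap for these 7. Over all genes, 4.60% were called higher, 2.61% were called lower and 15.1% did not overlap in either direction. The median of the list was 0.11. Those that rose were enzymes of serine and one-carbon synthesis, a cystine transporter and a pseudokinase. Psat1, which makes phosphoserine, rose from 27.2 ± 3.24 to 88.1 ± 4.04 (log2 fold change 1.66, limma adjusted p = 0.000308). Phgdh, the first enzyme of serine synthesis, rose from 19.2 ± 6.70 to 39.9 ± 5.60 (1.06, limma adjusted p = 0.0317). Mthfd2, a mitochondrial folate enzyme, rose from 32.7 ± 8.79 to 79.0 ± 17.7 (1.26, limma adjusted p = 0.0121).

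Slc7a11, the cystine-glutamate exchanger, rose from 32.5 ± 14.2 to 97.2 ± 38.2 (log2 fold change 1.61, limma adjusted p = 0.0296), and Trib3, a pseudokinase, from 158 ± 24.2 to 283 ± 19.9 (0.85, limma adjusted p = 0.00273). Except for Trib3, the targets that rose were weakly expressed in Con-Veh, with means from 19.2 to 32.7. Ddit3, which encodes the pro-apoptotic factor CHOP, fell from 283 ± 87.9 to 136 ± 21.1 (log2 fold change -1.01, limma adjusted p = 0.0191). Slc3a2, the heavy chain that pairs with the SLC7A11 transporter, fell from 927 ± 71.6 to 697 ± 76.9 (-0.41, limma adjusted p = 0.0282). The targets that passed thus moved in both directions. None of the 3 hepatokines with this regulator passed, and their log2 fold changes were 0.38 for Inhbe, 0.25 for Fgf21 and -1.37 for Gdf15. Psat1 and Trib3 were called under all 21 alternative settings. Mthfd2 was called in 20 of them and whichever single liver was left out. Ddit3 was called in 17 of 21, Slc7a11 in 13 of 21, Phgdh in 12 of 20 and Slc3a2 in 11 of 21. With 1 liver left out, Phgdh held its call without Con-Veh replicate 1 or Con-DHT replicate 3, Slc7a11 without Con-Veh replicate 1 or 2 or Con-DHT replicate 3, and Slc3a2 without Con-Veh replicate 4 or Con-DHT replicate 2. Without any other single liver they lost it, at limma adjusted p values of up to 0.0849, 0.0762 and 0.0802. Ddit3 lost its call without Con-Veh replicate 2 or Con-DHT replicate 1 (limma adjusted p up to 0.0551). With spike-in scaling Ddit3 and Slc3a2 did not pass (limma adjusted p = 0.146 and 0.925).

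**Figure D4:**
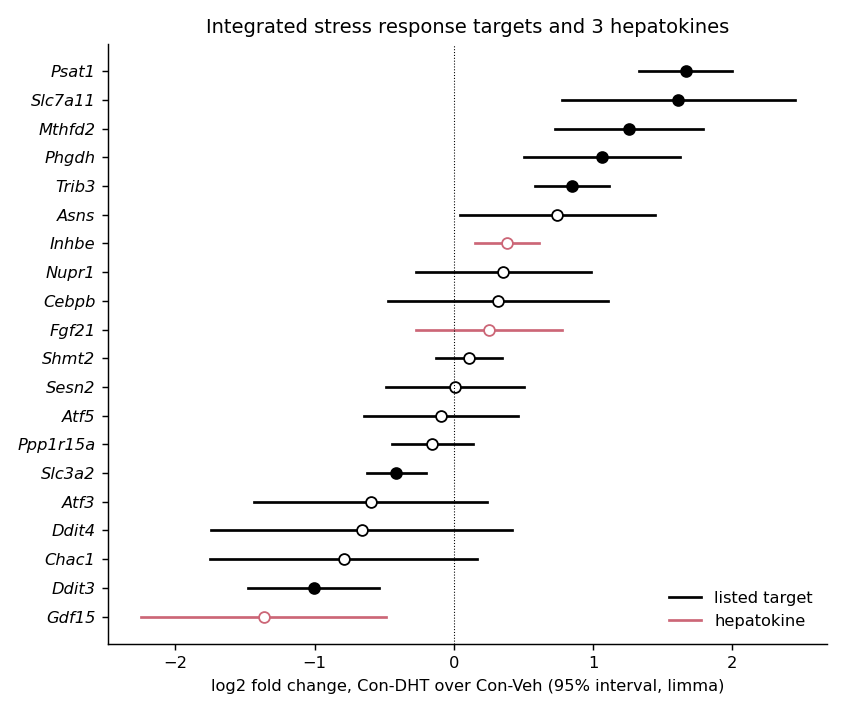
Log2 fold change of Con-DHT over Con-Veh with 95% interval from limma for 17 targets of the integrated stress response (black) and for Gdf15, Inhbe and Fgf21 (red); filled points passed at an adjusted p of at most 0.05. The values run from -1.37 for Gdf15 to 1.66 for Psat1.

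Targets of PPARα, the factor that also acts on Fgf21 and Angptl4, had a median of 0.17. Of these 17 genes, 1 passed in limma, against 7.21% of all genes, and 4 had groups without overlap, against 15.1%. The 1 that passed was Cpt1a, the carnitine transferase that admits fatty acids to mitochondria. It rose from 11059 ± 1067 to 15654 ± 937 (log2 fold change 0.50, limma adjusted p = 0.0119). The call of Cpt1a was lost with spike-in scaling (limma adjusted p = 0.297). In the study's own quantitative RT-PCR of livers from WD-fed mice, Cpt1a did not change with DHT. ChREBP, SREBP-1c and LXR regulate Angptl8 and Fgf21 in the fed state. Of their 16 lipogenic targets 2 passed, against 7.21% of all genes, and the median was -0.13. Elovl6, a fatty acid elongase, rose from 328 ± 33.2 to 537 ± 74.6 (log2 fold change 0.70, limma adjusted p = 0.00707). Pklr, the liver pyruvate kinase, fell from 1245 ± 86.7 to 857 ± 102 (log2 fold change -0.54, limma adjusted p = 0.00776). The pair moved in opposite directions, and with spike-in scaling neither passed (limma adjusted p = 0.0575 and 0.883).

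Among 14 other proteins described as hepatokines, 1 passed in limma, close to the share of 7.21% over all genes, and the median was -0.20. Smoc1, a glucose-responsive matrix protein, fell from 2311 ± 97.9 to 1669 ± 270 (log2 fold change -0.48, limma adjusted p = 0.0251), without a call under spike-in scaling (limma adjusted p = 0.913). With 1 liver left out, its call held without Con-Veh replicate 1 or Con-DHT replicate 2 or 3 (limma adjusted p up to 0.0645 otherwise).

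The genes whose values followed a member most closely over the 8 livers were found by the root mean square difference of centred log2 values, for the 4 members with the widest range. For Gdf15 they were Gucy2c and Gm26669, each at 0.41 log2 units, beside a range of 2.75 for Gdf15 itself. For Angptl8 they were 4931440P22Rik (0.32) and Btbd19 (0.34), for Angptl6 Pam (0.10) and Tbx20 (0.12), and for Fgf21 2010003K11Rik (0.15) and Gm13021 (0.16). None of these 8 genes passed in limma. The closest match of Gdf15 was looser than that of the other 3, and these are descriptions of likeness among many genes with 8 points each.

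**Figure D5:**
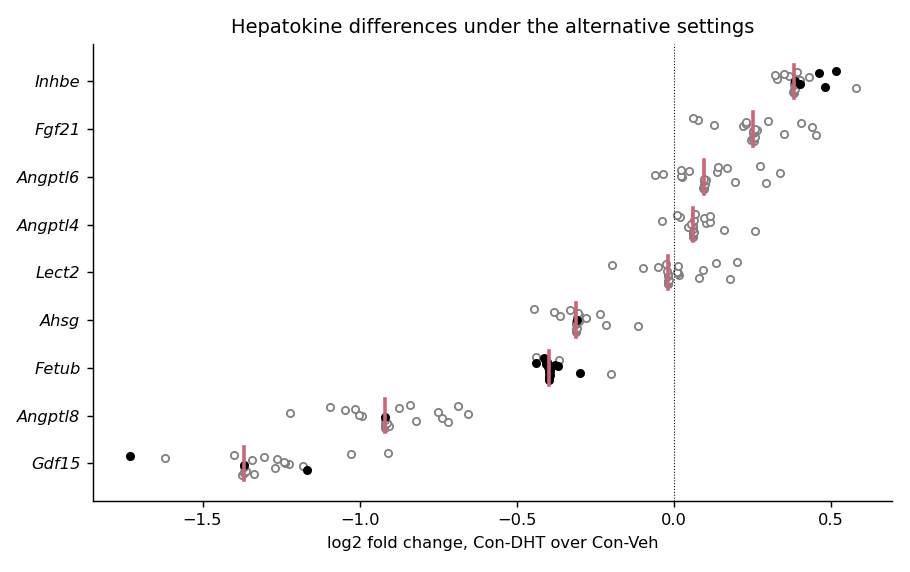
Log2 fold change of Con-DHT over Con-Veh of each member under 21 alternative settings (points; filled where the adjusted p was at most 0.05) and in limma as reported (red bars). Fetub, Ahsg, Angptl8 and Gdf15 are below 0 and Inhbe and Fgf21 above 0 under every setting, while Lect2, Angptl4 and Angptl6 fall on both sides.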

How the data were processed

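Liver RNA of 8 mice was sequenced, and the groups Con-Veh and Con-DHT (4 mice each) were taken from the labels. The study gives 1 library per mouse; with 4 per group, tests measure the spread between these mice. Per the processing notes and methods, the authors used bcl2fastq 2.20, Trimmomatic 0.36, STAR 2.5.2b (genome build GRCm39) and featureCounts of Subread 1.5.2 on uniquely mapped reads in exons, then DESeq2. Whether counting used strand is not given in the sources used here. The values the authors deposited are a normalized signal, reads per gene divided by 1 size factor per library, for 14371 features, 54 of them ERCC spike-ins. Genes with under 81 reads in all had been left out. Dividing by each library's smallest step gave whole numbers for 100% of values (tolerance 0.01).

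Differences were tested with limma 3.58.1 (lmFit, eBayes with trend) in R 4.3.3 on log2(value + 1) for genes with a mean of at least 10, with Benjamini-Hochberg adjustment over all tested genes. EdgeR 4.0.16 and DESeq2 1.42.0 were run on the recovered reads. The scripts were tested on simulated data. Libraries of a group differed by far more than sampling noise, with a chi-square per degree of freedom of at least 19.5. Alternatives were other pseudocounts, filters, scalings (upper quartile, spike-ins, total without the Mup genes), weights, a replicate block and leaving out each library. Leaving out the 2 livers high in adipocyte markers was added after seeing the data. Gene names, exon lengths and overlaps came from GENCODE on GRCm38, neighbours and promoters from RefSeq; no gene spans are given, since the builds differ. Angptl4 is the member without a promoter shown.

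The members and lists were chosen with earlier results of these data known. The text names all 9 members, every gene of a list with an adjusted p of at most 0.05 or, if none, the 2 with the smallest p, except that some listed genes, with the counts of their lists, are not reported here. Insr, Met, Tie1, Tlr4, Lpl, Apoa5, Apoc3, Furin and Inhbc were named beside it, chosen after their values were seen.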

Additional observations from a re-analysis of the deposited data

Results flagged for a closer look

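Of 60 groups of 4 livers examined for 30 named genes, 2 held a liver that stood far from the other 3, where chance gives about 1 in 20. Both concern Elovl6, the fatty acid elongase. In Con-Veh, replicate 3 was the lowest at a normalized value of 278.5, beside 340 to 351 in the other livers. In Con-DHT, replicate 3 was again the lowest at 425.6, beside 562 to 586. The 2 livers share a replicate number, and all Con-DHT values of Elovl6 remained above those of Con-Veh. No cause was tested.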

How the results depend on the processing

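Limma called 1032 genes and 1 member. The number of genes called was 648 with a mean of at least 50, 637 with spike-in scaling, 1569 with DESeq2, 474 without the 2 Con-DHT livers high in adipocyte markers and between 638 and 897 when 1 liver was left out; the last needs fewer samples, and the other causes were not tested. Spike-in scaling moved the share of higher genes among those called from 63.8% to 88.2%, and scaling to a total without the Mup genes to 83.9%. Spike-in totals themselves ranged from 265590 to 586543 in Con-Veh and from 334725 to 403787 in Con-DHT. The number of members called was 2 without the Mup genes in the total (Fetub and Inhbe), 2 with array weights (the same pair), 3 with DESeq2 and 1 to 2 when 1 liver was left out. With the replicate number as a block it was 2 (Angptl8, adjusted p = 0.045, and Gdf15, 0.0254), and Fetub was not called (0.0595); the block called 700 genes. Same-numbered livers did not deviate together (correlations of -0.19, -0.01, -0.02 and -0.08). This gives no sign that the numbers pair the mice, but it cannot exclude a pairing. Without the 2 livers high in adipocyte markers, Fetub had a log2 fold change of -0.44 (limma adjusted p = 0.0595) and Inhbe of 0.52 (0.0386). Over 21 alternatives Fetub was called in 17, Inhbe in 5, Gdf15 in 3, Angptl8 and Ahsg in 1 each, and the other 4 members in 0. With 4 mice per group, members such as Gdf15, Angptl8 and Fgf21, which vary by 29.5% to 61.7% within a group, have wide intervals.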
